A study of Mus musculus with 2 samples.

Results

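The genes of the SIX-EYA-DACH network described here are 7 of the 46095 genes in the count table: the homeobox genes Six4 and Six5, the 4 EYA genes Eya1, Eya2, Eya3 and Eya4, and Dach1. They were chosen by name, with their values in these libraries already known, so all of their differences are descriptions and none is a test. The study sorted cells labelled leukaemia-initiating from the bone marrow of mice with acute myeloid leukaemia (AML), by surface Mac1 and c-Kit, and sequenced RNA from 2 libraries, both labelled C57BL/6 and 8 weeks of age. One library is labelled P2x7-KO (title ending in KD) and the other wild type (title ending in Scr), for the ATP-gated channel P2X7. The labels thus call the same library a knockout in the genotype field and, by its title, KD. The labels state neither how the leukaemia was started nor how many mice gave each library.

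With 1 library per group there is no replicate check, and no p-value was computed. The library labelled P2x7-KO held 12435916 counts and the library labelled wild type 12456212. P2rx7, the targeted gene, was higher in the library labelled P2x7-KO, at 543 counts and 42.6 CPM (counts scaled to 1000000 per library), against 229 counts and 18.8 CPM in the library labelled wild type. The targeted gene was thus not lower under the knockout label. Whether each library matches its label was not tested, and an exchange of the libraries would turn every direction given below. Each library is called by its label below, in full or as P2x7-KO and wild type. Intervals are exact 95% intervals for counting error only. They do not cover variation between mice, sorts or library preparations, and reads are not independent molecules. In bulk RNA, fewer cells with a transcript and less transcript per cell cannot be told apart.

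These proteins form a transcriptional network first worked out in the Drosophila eye, where the founding genes are sine oculis, eyes absent and dachshund. SIX-family proteins bind DNA through a homeodomain, EYA proteins bind them as coactivators without a DNA-binding domain of their own and also carry a tyrosine phosphatase domain, and DACH1 recruits corepressors. Mouse Eya1 is known as a gene raised by MLL fusion proteins in leukaemia, and Dach1 is known to be expressed in mouse haematopoietic progenitors.

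On mm10 (GENCODE M21) the genes lie apart on different chromosomes. Six4 spans chr12:73099609-73113456 (minus strand), Six5 chr7:19094594-19098549 (plus), Eya1 chr1:14168954-14310235 (minus) and Eya2 chr2:165595032-165771727 (plus). Eya3 spans chr4:132638987-132724765 (plus), Eya4 chr10:23102963-23350786 (minus) and Dach1 chr14:97786853-98169765 (minus). Counts are per gene, so exons, introns and UTRs are not told apart.

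The promoters below belong to a gene that was higher in the library labelled P2x7-KO (Dach1), one that was lower (Six5) and one that was near equality (Eya3). RefSeq promoter sequence (GRCm38.p6, the mm10 assembly) was matched for 5 of the 7 genes. Letters run 5' to 3' on the strand of the gene and end just before its start (Eya3: before the first transcribed base in GENCODE M21). Capitals mark the GC box GGGCGG on either strand. The Dach1 bases are chr14:98169766-98170015 on the minus strand, those of Six5 are chr7:19094294-19094543 on the plus strand, and those of Eya3 are chr4:132638796-132638986 on the plus strand.
Dach1 promoter: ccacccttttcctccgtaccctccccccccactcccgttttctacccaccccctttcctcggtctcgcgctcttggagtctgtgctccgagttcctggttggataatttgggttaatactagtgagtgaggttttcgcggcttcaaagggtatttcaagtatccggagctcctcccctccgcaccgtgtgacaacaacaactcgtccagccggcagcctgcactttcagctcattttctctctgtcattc
Six5 promoter: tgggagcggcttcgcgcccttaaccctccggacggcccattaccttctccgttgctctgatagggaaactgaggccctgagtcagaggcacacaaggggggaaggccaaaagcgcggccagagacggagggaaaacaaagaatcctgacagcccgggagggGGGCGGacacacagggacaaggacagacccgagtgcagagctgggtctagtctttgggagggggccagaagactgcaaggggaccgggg
Eya3 promoter: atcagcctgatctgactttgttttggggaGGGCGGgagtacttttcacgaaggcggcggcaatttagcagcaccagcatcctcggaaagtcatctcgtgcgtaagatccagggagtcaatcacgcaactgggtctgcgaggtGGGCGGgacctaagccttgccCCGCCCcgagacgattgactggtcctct

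In the full window of 250 bases before the start, the Eya3 promoter held 3 GC boxes, the Six5 promoter 1 and the Dach1 promoter 0, while 32.7% of the 32851 mouse promoters in the same table held at least 1. None of the 3 held CCAAT (in 33.8% of all promoters) or TATAAA (in 12.4%), on either strand. Each of the 3 printed stretches holds 13 CpG dinucleotides, over 250 bases for Dach1 and Six5 and 191 for Eya3.

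A motif of the SIX-family proteins themselves is shown for Six4. These proteins are known to bind the MEF3 motif, first described in muscle gene promoters, which was searched as TCAGGTTTC on both strands. It occurs in 0.387% of all promoters in the table, and among the 7 windows of Six4 and Eya4 (2 overlapping windows each), Six5, Eya3 and Dach1 it occurs in 1, before 1 of the 2 starts that RefSeq gives for Six4. The shorter core TCAGGTT, which lies inside it, is in 3.49% of all promoters and in that same 1 of the 7. The match begins 99 bases before that start and lies on the strand opposite to the gene. It lies inside the GENCODE M21 span of Six4 given above, past the first transcribed base in that annotation. It is also downstream of the other RefSeq start of Six4, whose window holds no match. The same bases, chr12:73113326-73113354, are given on both strands, with the match in capitals.
Six4, strand of the gene (minus): tggcctggggGAAACCTGAtcggccagat
Six4, opposite strand (plus): atctggccgaTCAGGTTTCccccaggcca
A match is a sequence description, and whether a SIX-family protein binds there in these cells was not measured.

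Among the 7 genes, 4 had at least 20 counts over both libraries and could be called by the rule used for all genes, which asks for a ratio of 2 or more in either direction and an interval that excludes equality. Of these 4, Dach1 was higher in the library labelled P2x7-KO, Eya1 and Six5 were lower, and Eya3 was neither. Over all 13363 genes with 20 counts, the same rule called 19.8% of them, with 10.8% higher and 8.95% lower in the library labelled P2x7-KO. Since the members were picked with these ratios known, nothing is read from their count against that share. Six4 had 18 counts in all, just under the filter, and Eya2 and Eya4 had 0 in both libraries.

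**Figure D1:**
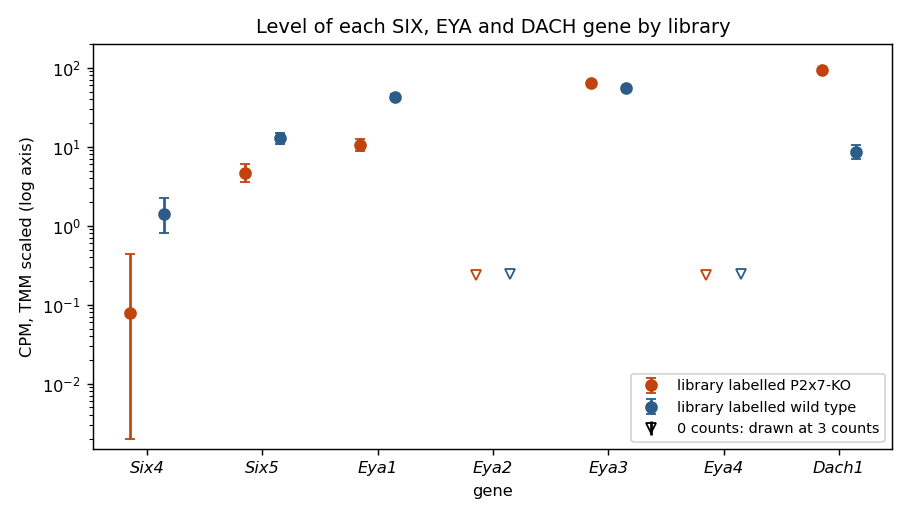
Levels of the 7 genes in CPM (TMM scaled, log axis), in the library labelled P2x7-KO (left of each pair) and in the library labelled wild type (right), with exact 95% Poisson intervals; genes at 0 counts are drawn as open triangles at 3 counts. Dach1 stands at 92.6 CPM in P2x7-KO and 8.55 CPM in wild type, Eya1 at 10.5 CPM in P2x7-KO and 42.7 CPM in wild type, and Eya3 at 63.9 CPM in P2x7-KO and 54.7 CPM in wild type.

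Of the SIX-family members, Six5 was lower in the library labelled P2x7-KO, and Six4 had too few counts to be called. Six5, which lies beside the myotonic dystrophy kinase gene Dmpk, had 60 counts in the library labelled P2x7-KO and 156 in the library labelled wild type. These are 4.71 CPM (3.60 to 6.06) and 12.8 CPM (10.9 to 15), so Six5 was 2.72-fold lower (2.01 to 3.73) and the intervals of its levels did not overlap. Six5 ranked 556th from the lowest ratio among the 13363 genes. Six4, which acts in mouse muscle formation, had 1 count in the library labelled P2x7-KO and 17 in the library labelled wild type. Its levels were 0.0785 CPM (0.00199 to 0.438) and 1.40 CPM (0.814 to 2.24), a ratio of 17.8-fold lower with a counting interval of 2.79 to 744. The single count in the library labelled P2x7-KO sets the width of that interval, and the gene stayed outside the calls for its low total. Part of the RefSeq span of Six4, 1847 bases, overlaps that of Mnat1, a subunit gene of the CDK-activating kinase. No label says whether counting used strand, and Mnat1 held 338 and 406 counts in the libraries labelled P2x7-KO and wild type, so the Six4 counts are uncertain. The RefSeq span of Six5 overlaps that of Bhmg1 by 279 bases.

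The 2 EYA genes with counts did not share a direction. Eya1, a coactivator gene needed for mouse ear and kidney formation, had 134 counts in the library labelled P2x7-KO and 520 in the library labelled wild type, or 10.5 CPM (8.82 to 12.5) and 42.7 CPM (39.2 to 46.6). It was 4.06-fold lower (3.35 to 4.95) and ranked 238th from the lowest ratio. Eya3, whose phosphatase acts on histone H2AX in the DNA damage response, had 814 and 666 counts in the libraries labelled P2x7-KO and wild type. At 63.9 CPM (59.6 to 68.5) and 54.7 CPM (50.7 to 59.1) it was 1.17-fold higher (1.05 to 1.30), under the 2-fold rule, and 38.6% of genes had a higher ratio. After a smooth trend of the ratio on transcript length and GC content was removed, the Eya3 log2 ratio of 0.22 became -0.11 (-0.26 to 0.04), so its direction turned. Eya2 and Eya4, whose human homologue EYA4 is a deafness and cardiomyopathy gene, were not detected. A count of 0 allows up to 0.236 CPM in the library labelled P2x7-KO and 0.247 CPM in the library labelled wild type, taking 3 counts as the limit.

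The makeup of the EYA transcripts, which does not depend on how the libraries are scaled, therefore differed. Eya1 made up 14.1% of the 948 EYA counts in the library labelled P2x7-KO (12 to 16.5, Clopper-Pearson) and 43.8% of the 1186 in the library labelled wild type (41.0 to 46.7). Eya3 made up the rest in each. Per kilobase of transcript, Eya1 held 16.4% in P2x7-KO and 48.1% in wild type. The count of Eya1 per count of Eya3 was 0.165 in the library labelled P2x7-KO and 0.781 in the library labelled wild type, 4.74 times lower (3.81 to 5.93). Summed over the family, EYA counts stood at 74.4 CPM in P2x7-KO and 97.5 CPM in wild type, a ratio of 0.764 (0.700 to 0.832), a smaller difference than that of Eya1 alone.

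**Figure D2:**
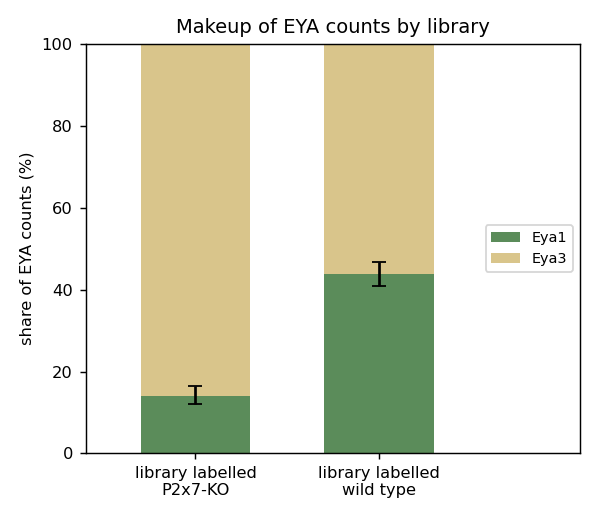
Share of EYA counts, in percent, that came from Eya1 (lower part, with the exact 95% binomial interval) and from Eya3 (upper part) in the library labelled P2x7-KO (left) and the library labelled wild type (right). Eya1 takes 14.1% in the library labelled P2x7-KO and 43.8% in the library labelled wild type, while Eya2 and Eya4 have 0 counts.

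Dach1, the DACH corepressor gene, stood apart in the other direction. It had 1179 counts in the library labelled P2x7-KO and 104 in the library labelled wild type, or 92.6 CPM (87.4 to 98.0) and 8.55 CPM (6.99 to 10.4). The ratio of 10.8-fold (8.86 to 13.4) placed it 38th from the highest of 13363 genes. Its log2 ratio of 3.43 became 2.91 (2.62 to 3.22) after the trend on length and GC content was removed, still past 2-fold. Measured against Eya3 in the same library, Dach1 gave 1.45 counts per Eya3 count in the library labelled P2x7-KO and 0.156 in the library labelled wild type, 9.28 times higher (7.38 to 11.7). Against Eya1 the contrast was wider, at 8.80 Dach1 counts per Eya1 count in the library labelled P2x7-KO and 0.20 in the library labelled wild type, 44.0 times higher (33.1 to 58.6). Dach1 spans 382.9 kb of chromosome 14, the longest gene of the set, with an annotated longest transcript of 5219 bases in 12 exons.

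**Figure D3:**
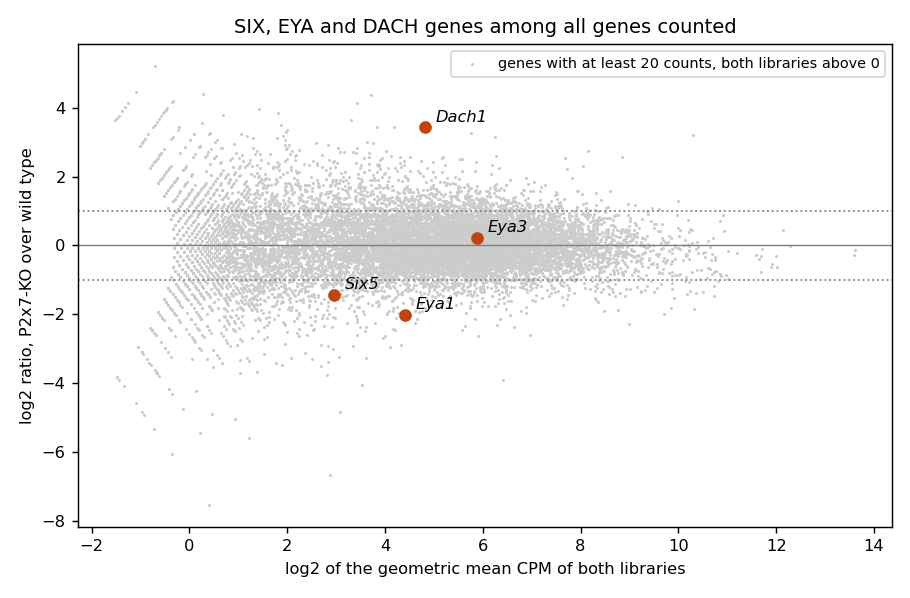
Log2 ratio of the library labelled P2x7-KO over the library labelled wild type against the log2 of the geometric mean CPM, for genes with at least 20 counts (grey) and the 4 members counted (circles); dotted lines mark 2-fold. Dach1 lies at 3.43, Eya3 at 0.22, Six5 at -1.44 and Eya1 at -2.02.

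Levels of different genes were compared per kilobase of the longest annotated transcript, on the CPM per kilobase scale. In the library labelled P2x7-KO the order of levels was Dach1 (17.7), Eya3 (12.3), Eya1 (2.41), Six5 (1.57) and Six4 (0.0115). In the library labelled wild type it was Eya3 (10.6), Eya1 (9.79), Six5 (4.26), Dach1 (1.64) and Six4 (0.205). The neighbours Eya3 and Eya1 did not differ beyond counting error in the library labelled wild type, with intervals of 9.77 to 11.4 and 8.97 to 10.7. In the library labelled P2x7-KO the intervals of Eya1 (2.02 to 2.85) and Six5 (1.20 to 2.02) met at their ends. Dach1 thus headed the order in the library labelled P2x7-KO and came behind Eya3, Eya1 and Six5 in the library labelled wild type. Of all counts on the 7 genes, Dach1 took 53.9% (51.8 to 56.0) of 2188 in the library labelled P2x7-KO and 7.11% (5.84 to 8.55) of 1463 in the library labelled wild type.

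Six5 was less far apart than Eya1, with 0.448 Six5 counts per Eya1 count in the library labelled P2x7-KO and 0.300 in the library labelled wild type (ratio 1.49, 1.03 to 2.15). Six4 and Six5 summed to 4.79 CPM in the library labelled P2x7-KO and 14.2 CPM in the library labelled wild type, a ratio of 0.337 (0.247 to 0.453). Of the related genes outside the 7, Six2, Six3, Six6 and Dach2 had 0 counts in both libraries.

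The surroundings of the genes were read within 500 kb of each start, from GENCODE M21 positions. Over all genes counted, 8.95% were lower and 10.8% higher, with a median log2 ratio of 0.00. The length and GC trend was not removed from the neighbour ratios given here. Around Six5 on chromosome 7, 28 genes were counted, with 3 lower, 1 higher, 24 neither and a median log2 ratio of -0.56. The nearest of the 3 lower genes was Dmwd, at 18 and 52 counts in the libraries labelled P2x7-KO and wild type (3.02-fold lower), and the AP-1 gene Fosb was another (4.83-fold lower, 2946 counts in P2x7-KO and 13586 in wild type). Around Eya3 on chromosome 4, of 32 genes 4 were lower, 3 higher and 25 neither. The 6 genes counted around Eya2 were all within 2-fold. The 3 around Eya4, the ribosomal protein gene Rps12 and the small nucleolar RNA genes Snord100 and Snora33, were all lower (2.30-fold, 2.39-fold and 2.98-fold). Their starts lie side by side, at -436.5, -435.0 and -434.7 kb from the Eya4 start along its strand, so they are not 3 separate places. No gene with 20 counts starts within 500 kb of Dach1 or Eya1.

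**Figure D4:**
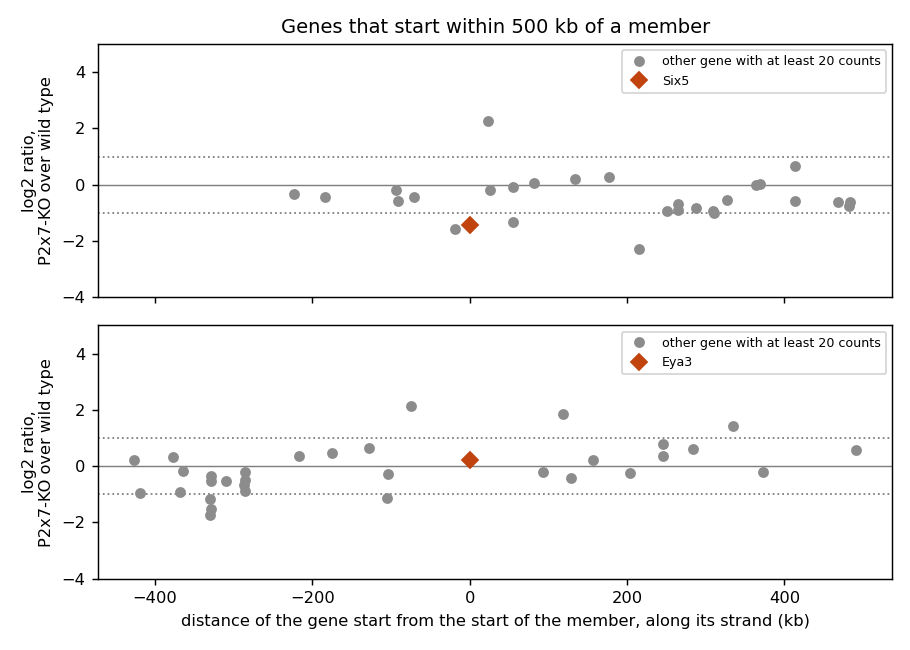
Log2 ratio (P2x7-KO over wild type) of genes with at least 20 counts that start within 500 kb of Six5 or Eya3, against distance in kb from the start of that gene along its strand; the diamond is the named gene. Six5 lies at -1.44 among neighbours with a median of -0.56, and Eya3 at 0.22 among neighbours with a median of -0.21.

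Partner genes of the network were read from lists put together with earlier results of these data known. Over all 13363 genes counted, the rule called 19.8%, with 10.8% higher and 8.95% lower. Nothing is read from the number called in this or any later list against those shares. Of the 2 SKI family genes counted, which share a DACH-like domain and act as corepressors of SMAD signalling, both were at least 2-fold higher. Ski had 1178 and 557 counts in the libraries labelled P2x7-KO and wild type (2.02-fold, 1.83 to 2.24), and Skil had 311 in P2x7-KO and 115 in wild type (2.58-fold, 2.08 to 3.23). Their log2 ratios of 1.01 and 1.37 became 0.85 and 0.63 after the trend on length and GC content was removed, so neither stayed past 2-fold. Of the 6 corepressor and SMAD genes known to work with DACH1, 0 were past 2-fold in either direction. Their median log2 ratio was 0.37, beside 0.00 over all genes counted. That median turned to -0.10 after the length and GC trend was removed. Within them the SMAD gene Smad4 had 1174 counts in P2x7-KO and 629 in wild type (1.78-fold, 1.62 to 1.97), while the deacetylase gene Hdac1 had a ratio of 0.734 (0.673 to 0.80).

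Of 6 genes of the Groucho/TLE family, which includes corepressors that bind SIX-family proteins, 1 was lower, 0 higher and 5 neither. The shares over all genes counted were 8.95% lower and 10.8% higher. The median log2 ratio of the 6 Groucho/TLE genes was -0.24. The lower one was Tle2, at 99 and 208 counts in the libraries labelled P2x7-KO and wild type (2.20-fold lower, 1.72 to 2.82), and it came under 2-fold after the length and GC trend was removed (log2 ratio -0.80). Of 9 PAX genes, which act with this network in organ formation, Pax8 alone was counted, at 171 counts in P2x7-KO and 162 in wild type, and 5 had 0 in both libraries. Of 4 cofactor and EYA partner genes 2 were counted (Gnai2 and Mcrs1), with 0 past 2-fold and a median of -0.06 (0.29 after the length and GC trend was removed), and Sobp, a gene of a SIX-family cofactor, had 0 counts in both libraries. The 6 genes of H2AX tyrosine phosphorylation, the known substrate route of EYA phosphatases, had 0 past 2-fold and a median of 0.15, with H2afx itself at 1978 counts in P2x7-KO and 2823 in wild type (ratio 0.669, 0.632 to 0.709). After the length and GC trend was removed, the median of that list turned to -0.10, the H2afx log2 ratio of -0.58 turned to 0.10, and Apbb1 was past 2-fold, at a log2 ratio of 1.05 with 48 counts in P2x7-KO and 28 in wild type.

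Of 7 genes reported elsewhere as targets of SIX-family proteins or DACH1, 2 were counted and 0 passed the rule. The cyclin gene Ccnd1 had 654 and 712 counts in the libraries labelled P2x7-KO and wild type (ratio 0.877, 0.788 to 0.977), and the ezrin gene Ezr 3226 in P2x7-KO and 2629 in wild type (1.17-fold, 1.11 to 1.23). Myog, Slc12a2 and Ret held at most 2 counts in a library, and Ccna1 and Gdnf held 0. Of 7 HOXA9 and MEIS1 programme genes, 1 was lower, 0 higher and 6 neither, beside 8.95% lower and 10.8% higher over all genes counted. Their median of 0.36 became 0.06 after the length and GC trend was removed. The lower one was the transcription factor gene Sox4, at 93 counts in P2x7-KO and 671 in wild type (7.55-fold lower, 6.07 to 9.49). Against Hoxa9, Eya1 gave 0.0473 counts per Hoxa9 count in the library labelled P2x7-KO and 0.198 in the library labelled wild type, 4.19 times lower (3.43 to 5.15).

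**Figure D5:**
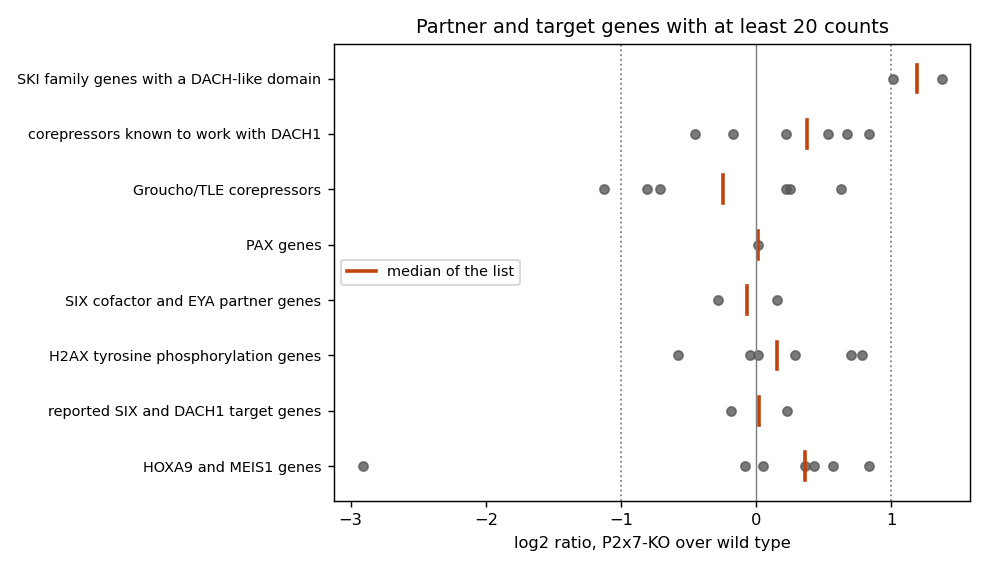
Log2 ratio (P2x7-KO over wild type) of each partner, target or programme gene with at least 20 counts, by list, with the list median as a vertical bar; dotted lines mark 2-fold. The SKI genes Ski and Skil lie at 1.01 and 1.37, Tle2 at -1.13 and Sox4 at -2.91.

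The genes nearest in level to Dach1 over both libraries, among those of gene type mRNA with at least 100 counts and by distance in log2 CPM, were Crispld2, Trio and Plxnc1. Crispld2 had 801 and 138 counts in the libraries labelled P2x7-KO and wild type, Trio 708 in P2x7-KO and 114 in wild type, and Plxnc1 940 in P2x7-KO and 167 in wild type. Their distances of 0.69 to 0.76 were wider than those around Eya1, where Ier3, Itga2b and Hist1h2bc lay at 0.17 to 0.27. The immediate early gene Ier3 had 125 counts in P2x7-KO and 471 in wild type, the megakaryocyte integrin gene Itga2b 114 in P2x7-KO and 473 in wild type, and the histone gene Hist1h2bc 130 in P2x7-KO and 432 in wild type. A likeness over 2 libraries rests on 2 values a gene.

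Markers of cell types also differed between the libraries, and their part in the results above was not tested. For all genes counted, the shares called were 10.8% higher and 8.95% lower. Of 10 monocyte and macrophage markers 6 were at least 2-fold higher and 1 lower, summing to 4181 CPM in the library labelled P2x7-KO and 2307 CPM in the library labelled wild type. Of 4 mast cell and basophil markers counted, 2 were lower and 0 higher. The sum over all 6 listed was 40.1 CPM in P2x7-KO and 379 CPM in wild type. The mast cell protease gene Cpa3, at 280 counts in P2x7-KO and 4058 in wild type, made the largest part of each sum. It stood at 22.0 CPM in P2x7-KO and 334 CPM in wild type. Mcpt8 (ratio 0.699, 0.578 to 0.843) and Ms4a2 (ratio 0.808, 0.328 to 1.96) were not called. Of 7 neutrophil markers counted 1 was higher and 1 lower, and the erythroid sum was 141 counts in the library labelled P2x7-KO and 16 in the library labelled wild type. Of 7 B lymphoid markers 2 were counted, with Ighm lower (395 counts in P2x7-KO and 892 in wild type). Of 12 stromal and endothelial markers, 2 were counted: Pdgfrb, at 693 counts in P2x7-KO and 1104 in wild type and past 2-fold in neither direction, and Cxcl12, which was higher (3.18-fold, 1.23 to 9.69). The Cxcl12 log2 ratio of 1.59 became 1.22 after the length and GC trend was removed, and it was no longer called. Dcn and Lum were at 0 in both libraries, Col1a1 had 2 counts in P2x7-KO and 5 in wild type, and Cxcl12 had 20 in P2x7-KO and 6 in wild type. The sort gene Itgam was 2.90-fold higher (2.77 to 3.04) and Kit 1.47-fold higher (1.32 to 1.64) in the library labelled P2x7-KO. After the length and GC trend was removed, the Itgam log2 ratio of 1.54 became 1.21 (1.14 to 1.27). The Kit log2 ratio of 0.56 became 0.15 (-0.01 to 0.31), an interval that includes equality.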

How the data were processed

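RNA of 2 libraries was sequenced by the study, and the authors deposited raw counts per gene for 46095 genes. HISAT2 2.0.4 and mm10 are named per the submitters' processing notes. Neither the labels nor the table name the counting program, annotation, strand setting or treatment of multiply mapped reads, so values of overlapping genes are uncertain. All value columns were used. Groups came from the genotype labels. The members and lists (15 lists, 104 entries) were chosen with earlier results of these data known, and some listed genes are not reported here.

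Counts were scaled with TMM (edgeR 4.0.16, R 4.3.3) and are given as CPM. The ratio is P2x7-KO over wild type, with an exact 95% interval from the Clopper-Pearson bounds of a gene's share of counts (SciPy 1.17.1), and CPM has exact Poisson intervals. Log2 ratios have 0.5 added to each count. Genes with 20 or more counts in all were called at a ratio of 2 or more with an interval excluding 1. All members are named. Listed genes are named when called, at most 3 a direction by the nearer bound of the interval, and others named were chosen after their values were seen. Lengths and GC content came from the longest GENCODE M21 transcript, with values for 92.6% of genes counted. The trend on both was a generalized additive model (mgcv 1.9.3). The interval and the trend were tested on simulated data. Alternatives were 3 scalings (DESeq2 1.42.0 for one), 2 count filters, thinning, removal of the length and GC trend, and 2 fold thresholds.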

Additional observations from a re-analysis of the deposited data

How the results depend on the processing

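The count of members at least 2-fold apart was 3 with TMM, total count, median-of-ratios and upper quartile scaling, with at least 50 counts, after thinning and after removal of the length and GC trend. It was 4 with at least 1 count, where Six4 is called lower, and 2 at 3-fold, where 1 member was lower in place of 2, since Six5 dropped out. Dach1 (log2 ratio 3.40 to 3.50), Eya1 (-2.05 to -1.95) and Six5 (-1.47 to -1.37) kept their direction and their call under all scalings and thinning. After removal of the length and GC trend they stood at 2.91, -2.40 and -1.07, and were still called. The Eya3 log2 ratio was 0.19 to 0.29 under the scalings and -0.11 after that removal. Over all genes, 2643 were called, with 1447 higher and 1196 lower. After removal of the trend 1639 were called, with 930 higher and 709 lower, and the cause was not tested. At 1.5-fold there were 5346, with 2825 higher and 2521 lower, and at 3-fold 1004, with 557 higher and 447 lower, as the threshold itself sets. Depth limits Six4, Eya2 and Eya4, which lie at or under 17 counts a library. No paired analysis was possible because each group holds 1 library.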
